A study of Homo sapiens with 18 samples.

Results

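Trimethylation of histone H3 at lysine 4 (H3K4me3) was mapped by chromatin immunoprecipitation sequencing in V16D cells, and 1741 regions carried the mark in every library while lying far from any annotated gene start. They were chosen by their peak calls and their place. The peaks of the 6 H3K4me3 libraries were merged where they shared a base, and a merged region was kept if it was under 4000 bases wide, had a peak in all 6 lists and lay more than 10 kb from the 5′ end of every RefSeq gene, coding or non-coding, on chromosomes 1 to 22 and X. The 1741 regions, called constant distal regions here, were selected from 25276 merged regions, of which 15760 had a peak in all 6 lists. A gene start here is the 5′ end of the RefSeq gene, a single point per gene on GRCh38, and genes without a known strand counted with both ends. That point is the outermost annotated end and need not be the main promoter of the gene.

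V16D is a castration-resistant prostate cancer line derived from LNCaP. V16D/CTL cells carried a control lentiviral vector and V16D/H19 cells a lentiviral vector that overexpresses the long non-coding RNA H19, both grown in RPMI medium with fetal bovine serum, with 3 biological replicates a group. Each replicate was immunoprecipitated for H3K4me3 and for H3K27me3, the repressive mark laid down by the Polycomb complex PRC2, and had its own input library. H19 was supplied by a vector in a single parental line, so the comparison is of that line with and without the added RNA. The study asked how H19 changes both marks.

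H3K4me3 marks the nucleosomes that flank active or poised transcription start sites, and it is laid down by COMPASS family methyltransferases that are recruited in part through unmethylated CpG islands. Enhancers usually carry more of the monomethylated form. Sharp H3K4me3 inside a gene or between genes is therefore often read as a candidate alternative or unannotated promoter, although strong enhancers can carry it too.

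The deposited lists hold positions and no bases, so sequence could be shown only where a RefSeq transcript start fell at a constant distal region. The sequences below run from 150 bases before to 20 bases after such a start, read 5′ to 3′ on the strand of the gene, and capitals mark each CpG. They come from RefSeq promoter sequences on GRCh38.p14. The first pair belongs to the 2 constant distal regions with the highest H3K4me3.
ACLY internal start, chr17:41918932-41919101, minus strand: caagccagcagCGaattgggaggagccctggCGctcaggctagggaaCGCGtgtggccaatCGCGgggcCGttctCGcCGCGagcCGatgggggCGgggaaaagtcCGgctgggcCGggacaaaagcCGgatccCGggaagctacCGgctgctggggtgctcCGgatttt
STAT5B internal start, chr17:42276372-42276541, minus strand: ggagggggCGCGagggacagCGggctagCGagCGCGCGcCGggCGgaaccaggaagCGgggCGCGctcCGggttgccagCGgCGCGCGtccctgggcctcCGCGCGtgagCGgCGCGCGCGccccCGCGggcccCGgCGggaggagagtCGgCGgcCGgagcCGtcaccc
The next lines set the internal start of a gene, which lay at a constant distal region, beside the 5′ end of the same gene, which had no H3K4me3 peak in any list. EXOC6 encodes a subunit of the exocyst, and MGAT1 the enzyme that starts complex N-glycan synthesis in the Golgi. The 170 bases hold 33 CpG at the EXOC6 internal start and 0 at its 5′ end, and 26 and 1 at those of MGAT1.
EXOC6 internal start, chr10:92848370-92848539, plus strand: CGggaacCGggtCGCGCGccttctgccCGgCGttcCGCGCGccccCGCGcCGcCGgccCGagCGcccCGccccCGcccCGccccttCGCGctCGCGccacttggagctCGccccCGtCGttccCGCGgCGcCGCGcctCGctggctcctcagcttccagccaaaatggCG
EXOC6 gene 5′ end, chr10:92826681-92826850, plus strand: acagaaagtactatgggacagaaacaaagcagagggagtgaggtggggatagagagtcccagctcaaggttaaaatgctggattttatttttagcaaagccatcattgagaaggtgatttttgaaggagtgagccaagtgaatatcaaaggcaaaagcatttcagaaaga
MGAT1 internal start, chr5:180802787-180802956, minus strand: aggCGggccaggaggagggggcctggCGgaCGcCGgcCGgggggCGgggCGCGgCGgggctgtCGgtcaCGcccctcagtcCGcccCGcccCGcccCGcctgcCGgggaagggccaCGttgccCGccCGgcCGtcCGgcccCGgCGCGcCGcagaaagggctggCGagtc
MGAT1 gene 5′ end, chr5:180815597-180815766, minus strand: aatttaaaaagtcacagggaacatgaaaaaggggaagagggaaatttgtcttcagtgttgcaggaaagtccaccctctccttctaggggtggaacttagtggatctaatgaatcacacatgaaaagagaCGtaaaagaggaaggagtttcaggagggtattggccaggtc
The following pair had the lowest CpG ratios among the starts at constant distal regions.
NAALADL2 internal start, chr3:174859184-174859353, plus strand: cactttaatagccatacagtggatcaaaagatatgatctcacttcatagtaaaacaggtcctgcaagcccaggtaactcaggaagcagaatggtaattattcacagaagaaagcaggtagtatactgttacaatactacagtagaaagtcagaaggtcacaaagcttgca
ARHGAP32 internal start, chr11:129024169-129024338, minus strand: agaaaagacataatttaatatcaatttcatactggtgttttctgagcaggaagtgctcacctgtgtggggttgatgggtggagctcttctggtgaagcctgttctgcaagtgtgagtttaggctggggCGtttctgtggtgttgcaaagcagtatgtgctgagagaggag
The last pair lies at the 2 regions with the largest positive differences (V16D/H19 minus V16D/CTL), neither of them called, which are described further on.
LIMK2 internal start, chr22:31248234-31248403, plus strand: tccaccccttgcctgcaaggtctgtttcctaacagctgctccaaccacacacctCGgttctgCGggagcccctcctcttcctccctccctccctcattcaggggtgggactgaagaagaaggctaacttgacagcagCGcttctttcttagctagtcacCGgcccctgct
RNF220 internal start, chr1:44631818-44631987, plus strand: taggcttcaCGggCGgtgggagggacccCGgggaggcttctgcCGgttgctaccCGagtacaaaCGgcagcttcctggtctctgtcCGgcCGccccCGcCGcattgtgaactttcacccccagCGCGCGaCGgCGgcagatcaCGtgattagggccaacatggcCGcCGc

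The levels in this report are the fold of the immunoprecipitated signal over input at the highest peak of a region, as MACS2 wrote it for each library. A region's level is the geometric mean of its 6 libraries unless a library is named. The 1741 regions had a median level of 12.5 fold, with an interquartile range between 7.504 and 25.8 and extremes of 3.83 and 76.3. Their median width was 1087 bases, with an interquartile range between 748 and 1664 bases. A peak was part of the rule, so these levels describe the chosen regions and carry no test.

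Constancy was less common far from gene starts than at them. Of the 6326 merged regions under 4000 bases and more than 10 kb from a gene start, 27.5% had a peak in all 6 lists and 37% had one in a single list. Of the 13189 merged regions under 4000 bases and within 1 kb of a gene start, 88.0% had a peak in all 6 lists and 4.2% in a single list. Between 1 and 10 kb, with the same width limit, the share in all 6 lists was 33.7%. A further 35 constant distal regions were 4000 bases or wider and are left out by the rule.

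Constant distal regions were weaker and narrower than constant regions at gene starts. The 11605 constant regions under 4000 bases within 1 kb of a gene start had a median level of 44.2 fold and a median width of 2138 bases. Library by library, the median over constant distal regions was 13.1, 13.0 and 12.2 fold in V16D/CTL against 13.2, 14.1 and 11.9 fold in V16D/H19. The group means of these medians were 12.7 ± 0.511 for V16D/CTL cells and 13.1 ± 1.13 for V16D/H19 cells (SD, n = 3), and the groups overlapped. On the log2 scale the median of constant distal regions lay below that of gene-start regions in 6 of 6 libraries, by differences between -1.82 and -1.67. The gap was smaller when only the 398 constant distal regions between 1572 and 2688 bases wide, the interquartile range of gene-start widths, were taken. These differed from all 11605 gene-start regions, whose widths were not limited further, by -0.34 on the same scale.

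**Figure D1:**
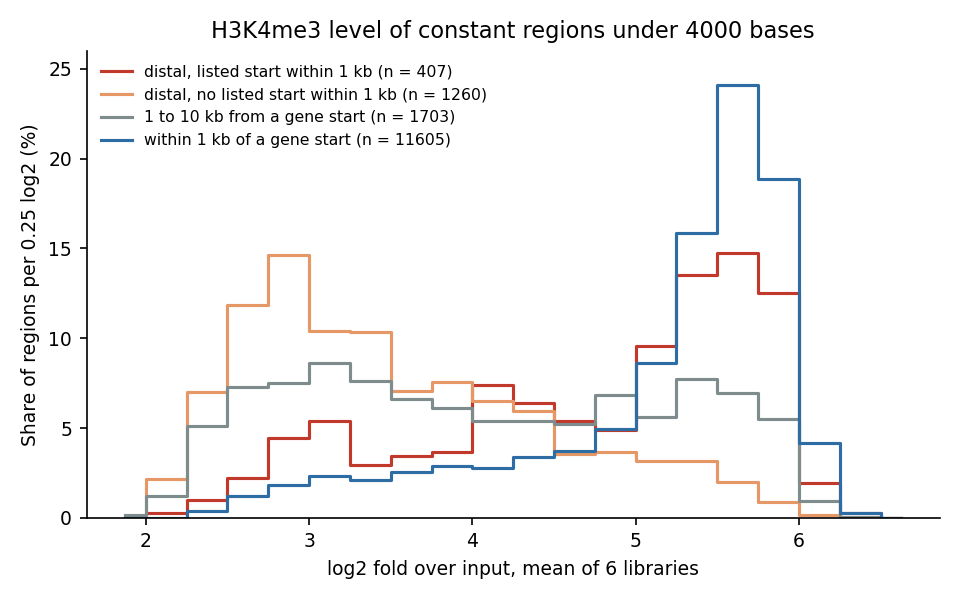
H3K4me3 level (log2 fold over input, mean of 6 libraries) on the horizontal axis against the share of regions per 0.25 log2 on the vertical axis, for 4 classes of constant regions under 4000 bases. Distal regions without a RefSeq transcript start within 1 kb (n = 1260) lie mostly at the low end, and distal regions with one (n = 407) lie mostly where the 11605 regions at gene starts do.

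The regions lay both inside and between genes. Of the 1741, 1060 (60.9%) overlapped a protein-coding gene, 116 (6.66%) only a non-coding gene, 11 only a pseudogene, and 554 (31.8%) no gene at all. Those in protein-coding genes had a median level of 15.5 fold and a median width of 1326 bases, and those outside every gene had 10.5 fold and 870 bases. The nearest gene start belonged to a protein-coding gene for 664 regions, to a long non-coding RNA gene for 566 and to a pseudogene for 404. The median distance to the nearest gene start was 24415 bases. The 693 regions between 10 and 20 kb had a median level of 15.3 fold, the 653 between 20 and 50 kb 12, the 284 between 50 and 100 kb 9.81, and the 111 beyond 100 kb 9.63.

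A gene's 5′ end is the outermost start of its transcripts, so a start inside the gene can lie far from it. Internal is meant here by position only, and an internal start may be the main promoter of its gene. Which start of a gene was used most was not tested. RefSeq promoter sequences list such starts for many genes, though not for all genes and for none on chromosome 8. Of the 1667 constant distal regions on the other chromosomes, 407 (24.4%) had a listed transcript start within 1 kb, and 386 of them contained it. A start of this kind lies inside its gene, so regions near one were almost bound to be intragenic. They were 405 of the 1015 regions in protein-coding genes (39.9%), 2 of the 108 in non-coding genes only and 0 of the 533 outside genes. The 407 regions had a median level of 34.0 fold and a median width of 1868 bases, and the other 1260 had 10.1 fold and 943 bases. The 1260 include the 533 outside genes, which could hardly have a listed start. Ordered by level, the share with a listed start was 6.71% in the lowest of 4 equal groups of regions, 11% in the next, 22.6% in the one above it and 57.3% in the highest. The 74 constant distal regions on chromosome 8, where no start was listed, had a median level of 11.8 fold.

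Each library gave the same order. The median over regions with a listed start was 34.9, 30.7 and 28.4 fold in V16D/CTL against 30.1, 34.2 and 31.1 fold in V16D/H19, and over regions without one it was 11.1, 10.6 and 10.2 fold in V16D/CTL against 10.7, 11.5 and 9.63 fold in V16D/H19. The lowest library median with a listed start lay above the highest without one. Some regions counted as lacking a start lay in genes with no entry: of the 610 regions without a listed start in protein-coding genes, 140 (23%) overlapped at least a single coding gene missing from the list, and their median level was 11.5 fold against 9.51 for the other 470.

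Seen from the starts, the list held 2447 transcript starts more than 10 kb from every gene 5′ end. Of these, 593 (24.2%) lay within 1 kb of a constant H3K4me3 region of any width and place, 528 within 1 kb of a constant distal region, and 700 (28.6%) within 1 kb of any peak. Among the 24778 listed starts that were themselves a gene 5′ end, 11537 (46.6%) lay within 1 kb of a constant region.

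The listed starts at constant distal regions resembled gene 5′ ends in base composition. The 528 starts had a median GC content of 65.3% over the 300 bases around them and a median CpG ratio (observed over expected) of 0.775, and 72.0% had a ratio of at least 0.6. The 1747 starts also more than 10 kb from gene 5′ ends but without any H3K4me3 peak had 46.3%, 0.252 and 8.93%. The 11537 gene 5′ ends with constant H3K4me3 had 66%, 0.853 and 87.0%. Among starts at constant distal regions, the 380 with a CpG ratio of at least 0.6 lay at regions with a median level of 41.3 fold, and the 148 below that ratio at regions with 18.7 fold. The unit is the start: the 528 starts, each assigned to its nearest region, fell at 400 regions. A region with several starts therefore counted more than once. The STAT5B start printed above, with a ratio of 1.105, and the NAALADL2 start, with 0, lay at regions of 74.1 and 15.3 fold.

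**Figure D2:**
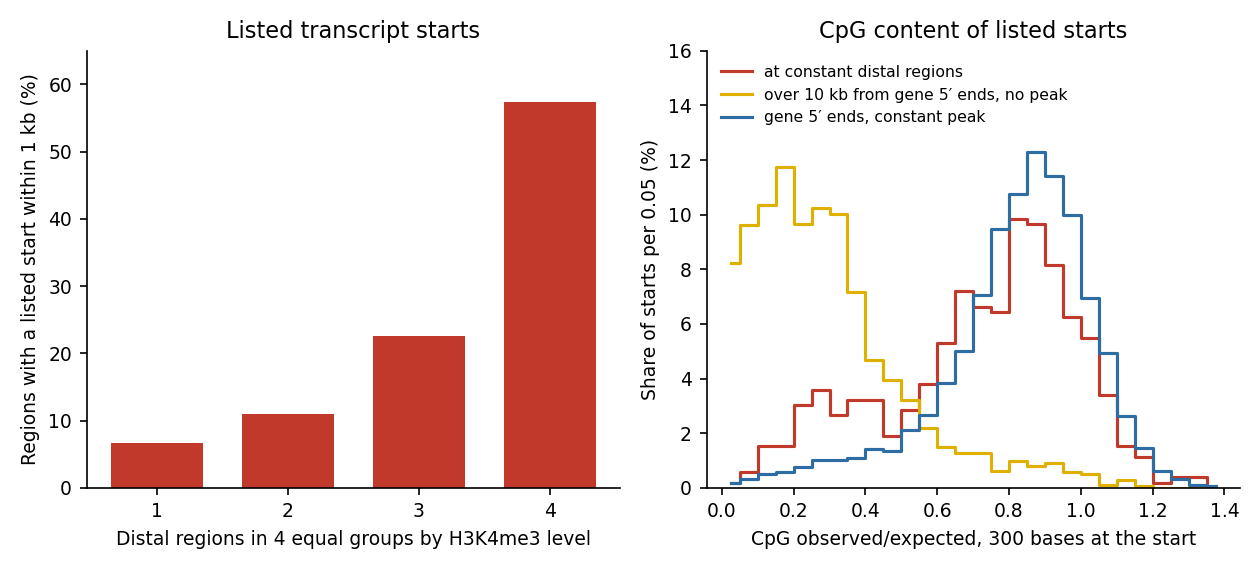
Left, share of constant distal regions with a listed transcript start within 1 kb (vertical axis, percent) in each of 4 equal groups by H3K4me3 level (horizontal axis, 1 lowest), rising from 6.71% to 57.3%. Right, CpG ratio over 300 bases (horizontal axis) against the share of starts per 0.05 (vertical axis), where starts at constant distal regions (n = 528) lie near gene 5′ ends with a constant peak and away from distal starts without a peak (n = 1747).

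Short promoter motifs were searched on both strands of the 300 bases, and a match describes letters and no binding. Shares are given in the order of starts at constant distal regions, distal starts without a peak, gene 5′ ends with constant H3K4me3 and all 34961 listed starts. The GC box GGGCGG, the core of SP1 family sites, was present at 63.8%, 15.1%, 72.1% and 45% of them. The TATA box TATAAA was present at 7.01%, 19%, 5.07% and 11.5%. For both, starts at constant distal regions lay nearer to marked gene 5′ ends than to distal starts without a peak. The androgen receptor half-site AGAACA, at 8.52%, 23.1%, 7.79% and 14.8%, and the FOXA1 letters TGTTTAC, at 2.84%, 4.81%, 2.3% and 3.42%, ranked the 4 sets as the TATA box did. The ETS letters CCGGAAG were present at 8.9%, 2.86%, 19.6% and 10.3%, and the YY1 letters AAGATGGC at 1.89%, 1.14%, 5.27% and 2.89%, so starts at constant distal regions lay between the other sets and below all listed starts. The cyclic AMP response element TGACGTCA was present at 2.84%, 0.973%, 3.39% and 1.85%, and the CCAAT box CCAAT at 30.9%, 34.3%, 36.3% and 34.6%, where starts at constant distal regions had the lowest share. The GC box shares its CpG with the CpG ratio, so the measures are not separate evidence.

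The mark sat on the transcribed side of these starts. For the 313 constant distal regions with a single listed start, the mean summit over the 6 libraries lay a median of 182 bases downstream of the start (interquartile range 82.8 to 289), and it lay downstream in 251 (80.2%). For 6523 constant regions with a single listed start that was a gene 5′ end, the median was 201 bases and the share downstream 84.5%. Summit position was not part of the rule. The summits of the 6 libraries fell within 200 bases of each other in 1089 of the 1741 constant distal regions (62.6%), with a median span of 139 bases.

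**Figure D3:**
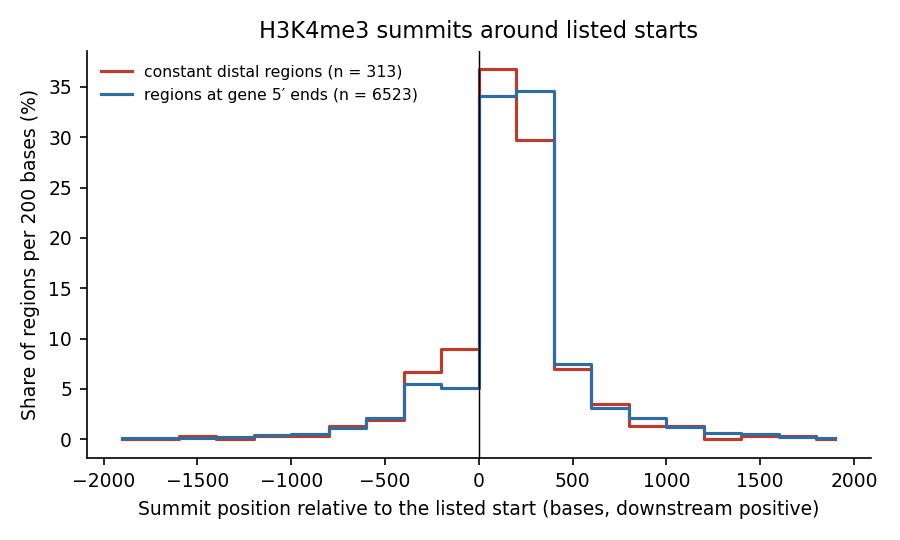
Position of the mean H3K4me3 summit relative to the listed transcript start (horizontal axis, bases, downstream positive) against the share of regions per 200 bases (vertical axis), for constant distal regions (n = 313) and regions at gene 5′ ends (n = 6523) with a single listed start. Both have their peak just downstream of the start, with medians of 182 and 201 bases.

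The 528 starts belonged to 385 genes, 383 of them protein-coding, and these genes divided by the state of their own 5′ end. In 207 genes (53.8%) the 5′ end also had a peak in all 6 lists, in 16 (4.16%) it had a peak in 1 to 5 lists, and in 162 (42.1%) it had none in any list. The internal region had about the same median level in the first and last of these classes, 34.9 fold where the 5′ end was marked in all lists and 34.7 fold where it was unmarked. Where both were constant, the 5′ end had a median of 41.9 fold, and the internal region was the higher in 90 of the 207 genes. The internal region lay a median of 40.2 kb from the 5′ end in genes with an unmarked 5′ end and 42.5 kb in genes with both marked. A peak at a 5′ end may also belong to the start of a neighbouring gene. AFF1 and C4orf36, neighbours on opposite strands, both had 47.0 fold at their 5′ ends. How many of the 207 genes shared such a peak was not counted.

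Composition at the 5′ ends differed between these classes. Both starts were listed for 74 of the genes with an unmarked 5′ end. There the median CpG ratio was 0.312 at the 5′ end and 0.800 at the internal start, and the internal start had the higher ratio in 63 (85.1%). Both were listed for 135 of the genes with 2 constant starts, with medians of 0.833 at the 5′ end and 0.789 at the internal start, and the internal ratio was the higher in 60 (44.4%).

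Among genes with an unmarked 5′ end, the highest internal level was that of ZFP1, a zinc finger gene, at chr16:75147943-75149887 and 29.5 kb from the 5′ end. Its fold over input was 70.2, 63.7 and 55.7 in V16D/CTL against 97.8, 76.2 and 48.8 in V16D/H19, so the groups overlapped. NDEL1, which encodes a dynein regulator that acts in neuronal migration, had 44.8, 87.6 and 70.0 fold in V16D/CTL against 38.1, 89.1 and 86.5 fold in V16D/H19 at chr17:8434965-8437601. EXOC6, whose internal and 5′ starts are printed above, ranged from 43.8 to 90.0 fold with a median of 61.6 over the 6 libraries. MGAT1 had 78.0, 75.0 and 64.7 fold in V16D/CTL against 46.2, 56.0 and 50.5 fold in V16D/H19, so its groups did not overlap, although the difference was not called in the test given further on.

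PRKAR1A, which encodes a regulatory subunit of protein kinase A, had its constant region 98.4 kb inside the gene at chr17:68510959-68514094. Its fold was 75.2, 68.3 and 70.3 in V16D/CTL against 45.4, 40.7 and 66.5 in V16D/H19, again without overlap and without a call. HK1, the gene of hexokinase 1, had 46.6, 61.5 and 62.7 fold in V16D/CTL against 56.9, 58.2 and 67.4 fold in V16D/H19 at chr10:69317493-69320395, 48.2 kb from its 5′ end. TUBA1C, an alpha tubulin, ranged from 51.8 to 75.4 fold and OCIAD1 from 45.0 to 77.0. These genes were named by level after their values were seen. The share of all constant regions whose groups did not overlap is not given here. Lack of overlap in a named region is therefore a description only.

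Where both starts were constant, the internal one could far exceed the 5′ end or fall far below it. ZNF343, a zinc finger gene, had 46.6 fold at the internal region and 5.72 fold at the 5′ end, a ratio of 8.16. ITGB5, the integrin beta 5 subunit, had 43.7 against 5.77 fold, STAT5B 74.1 against 12, MAGED1 43.0 against 7.49, and NFKBIZ, an inducible regulator of NF-kappaB target genes, 55.1 against 9.82. At the other end NADK, which makes NADP from NAD, had 5.31 fold inside the gene and 65.8 fold at the 5′ end, a ratio of 0.0807. TMCC1 had 5.28 against 50.8 fold and NT5C2 5.86 against 55.9.

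**Figure D4:**
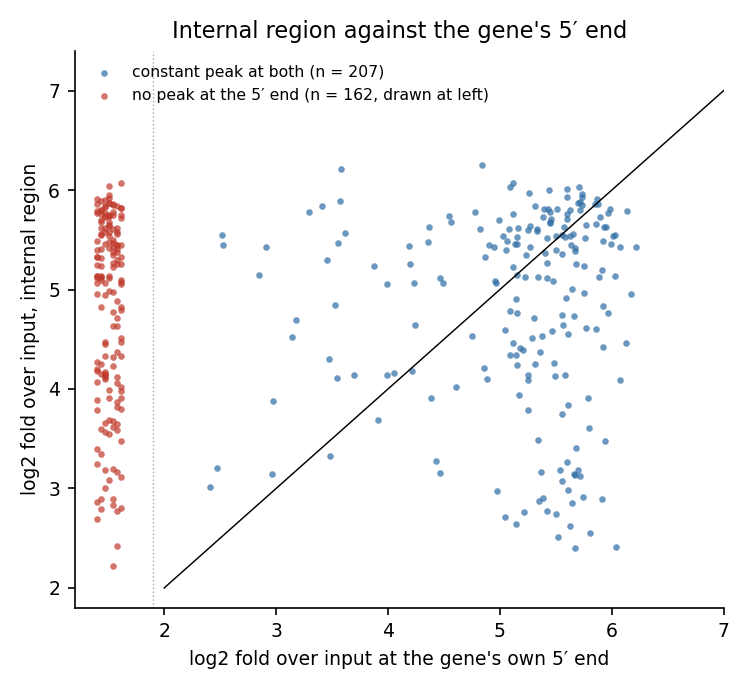
Level of the internal constant region (vertical axis, log2 fold over input) against the level at the 5′ end of the same gene (horizontal axis, same scale), 1 point per gene, with the line of equality. The 207 genes with a constant peak at both lie on both sides of the line (internal higher in 90), and the 162 genes without a peak at the 5′ end are drawn at left, where the horizontal position has no meaning.

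The 10 highest constant distal regions were nearly all at listed internal starts. They lay in ACLY (76.3 fold), STAT5B (74.1), ZSCAN18 (67.2), ZFP1 (67.0), NDEL1 (65.7), MIB1 (65.5), FAM120B (65.3), NHSL3 (65.3), PTBP3 (64.6) and JAK1 (64.2), and 9 of the 10 contained a start of the gene named. ACLY encodes ATP citrate lyase, which makes acetyl-CoA for lipid synthesis, and its region at chr17:41916628-41920110 lay 10.4 kb from the gene start. Its fold was 55.6, 74.0 and 85.7 in V16D/CTL against 89.5, 86.2 and 72.6 in V16D/H19. STAT5B, a transcription factor activated by prolactin and cytokine receptors, had 87.8, 69.5 and 80.8 fold in V16D/CTL against 58.4, 92.9 and 61.9 fold in V16D/H19 at chr17:42274973-42277127. JAK1, a kinase that acts upstream of STAT factors, had 60.9, 52.2 and 68.3 fold in V16D/CTL against 77.3, 52.3 and 79.4 fold in V16D/H19 at chr1:64965322-64967192. In all 3 genes the groups overlapped. The exception was the region in FAM120B at chr6:170305622-170308385, whose nearest gene start was that of DLL1, a Notch ligand, 14.5 kb away, and which had no listed start within 1 kb.

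The 5 most remote regions ranged from 7.53 to 15 fold. The farthest, in LINC02955 at chr12:23145872-23146367, lay 424 kb from any gene start with a level of 7.61 fold. A listed transcript start of LINC02955 was nearer, 29281 bases away. The others were chr6:94941450-94942462 at 10.5 fold, chr5:11384375-11385551 in CTNND2, the delta 2 catenin gene, at 9.95 fold, chr4:166569551-166570151 at 7.53 fold and chr1:104706349-104707279 at 15 fold. None of the 5 had a listed start within 1 kb, and the nearest to the CTNND2 region lay 203366 bases away.

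Some regions lay close together. No filter for stretches prone to mapping artefacts was applied here, so such stretches may be among them. Of windows of 100 kb, 1452 held a single constant distal region, 126 held 2, 7 held 3 and 4 held 4. The 4 fullest windows were in CASZ1, a zinc finger transcription factor gene (64.7 kb from first to last, median level 10.8 fold), in INPP5A (58.9 kb, 7.21 fold), on chromosome 12 from 34335301 to 34351450 outside annotated genes (16.2 kb, 15.7 fold), and in MIR99AHG, the host gene of a microRNA cluster (13.3 kb, 5.53 fold). The share of constant regions under 4000 bases that were distal ranged from 8.17% on chromosome 16 to 17.2% on chromosome 18, with 11.6% over all chromosomes.

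At the limits of the rule, the regions just beyond 10 kb lay in SLC22A11 (10.8 fold), near ARAP3 (5.23) and in KIF25 (8.92), and those just within it in DNAJB1 (11.2), in FNBP1 (49.3) and near the pseudogene PP1P (27.6). The widest constant distal regions lay in SLC3A2 (3985 bases, 62.2 fold), THRAP3 (3850 bases, 51.2 fold) and MIR99AHG (3843 bases, 25 fold), and the narrowest of those left out for width in ATF3 (4002 bases, 43.4 fold), FBXL17 (4003 bases, 10.6 fold) and RASEF (4059 bases, 24 fold).

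Levels were compared between V16D/H19 and V16D/CTL with limma on the log2 fold over input of all 15760 constant regions, each library centred on its median, with Benjamini-Hochberg adjustment. None of the 1741 constant distal regions passed an adjusted p of 0.05, and over all constant regions 1 did (0.00635%). The lowest adjusted p of a constant distal region was 0.234. At an unadjusted p under 0.05, 67 were higher in V16D/H19 (3.85%) and 90 lower (5.17%), where the shares over all constant regions were 3.27% and 3.57%. That balance turned without centring, which gave 81 higher and 68 lower. The median log2 difference was -0.05 over constant distal regions and -0.02 over all constant regions, with the middle 90% of constant distal regions between -0.67 and 0.60. The median 95% interval of a single region reached 0.64 on either side of its estimate, so a smaller difference could not be told from 0 in a typical region even before adjustment. Because the rule asked for a peak in all 6 lists, a region lost or gained in a group could not be among them.

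The largest differences are given as values without a call. They were picked by the size of their difference, which itself favours groups that do not overlap. The region at chr22:31248299-31249302 covers an internal start of LIMK2, a kinase that phosphorylates cofilin, and had 5.02, 4.19 and 6.56 fold in V16D/CTL against 15.8, 13.9 and 11.5 fold in V16D/H19. The groups did not overlap, with a log2 difference of 1.35 ± 0.298 (SE, n = 3 a group; limma adjusted p = 0.278). The region at chr1:44631085-44633376 covers an internal start of RNF220, a ubiquitin ligase, and had 26.4, 22.4 and 43.3 fold in V16D/CTL against 78.1, 74.1 and 77.2 fold in V16D/H19, also without overlap (log2 difference 1.33 ± 0.311, SE; limma adjusted p = 0.409). A region in XKR6 had 3.78, 5.87 and 9.67 fold in V16D/CTL against 9.30, 22.8 and 13.3 fold in V16D/H19, and there the groups overlapped (1.19 ± 0.367, SE; limma adjusted p = 0.478).

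On the lower side, an intergenic region at chr12:98397240-98397962 had 11.5, 13.4 and 12.4 fold in V16D/CTL against 2.88, 4.98 and 5.60 fold in V16D/H19, with no overlap (log2 difference -1.58 ± 0.308, SE; limma adjusted p = 0.234). An intergenic region at chr9:30074971-30075778 had 13.6, 15.7 and 14 fold in V16D/CTL against 6.16, 3.11 and 6.86 fold in V16D/H19 (-1.55 ± 0.330, SE; limma adjusted p = 0.252). A region in WNT8B, which encodes a Wnt ligand, had 11.6, 15.9 and 13.0 fold in V16D/CTL against 8.72, 4.24 and 5.41 fold in V16D/H19 (-1.24 ± 0.321, SE; limma adjusted p = 0.451). In these 3 regions, chosen as the largest falls, every V16D/H19 library lay below every V16D/CTL library. In all, 28 of the 1741 regions differed by at least 1 on the log2 scale, as did 125 of the 15760 constant regions.

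**Figure D5:**
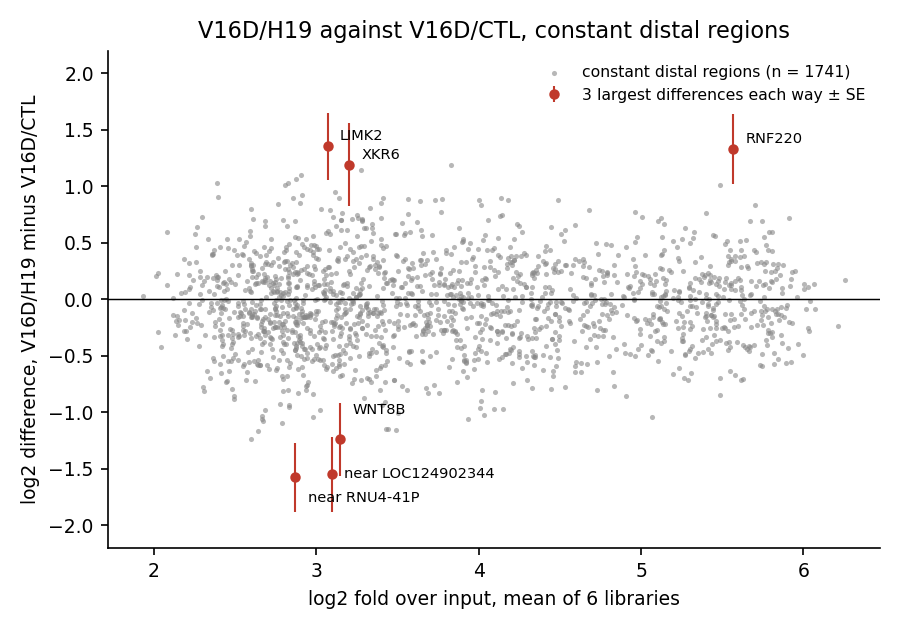
log2 difference between V16D/H19 and V16D/CTL (vertical axis) against mean level (horizontal axis, log2 fold over input) for 1741 constant distal regions, grey, with the 3 largest differences each way in red with their SE. The points centre near 0 (median -0.05), and 0 regions passed the adjusted test.

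Width gave a like result. The length covered by peaks in a constant distal region had a median of 842, 793 and 817 bases in V16D/CTL against 864, 897 and 779 bases in V16D/H19. The group means were 817 ± 24.5 and 847 ± 60.9 bases (SD, n = 3), and the groups overlapped. Levels over the 1741 regions correlated between libraries with r from 0.852 to 0.873 within a group (6 pairs) and from 0.840 to 0.855 between groups (9 pairs), as a description across regions that share their libraries.

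Genes of prostate lineage were read from 2 lists. Of a list of 20 luminal and androgen-responsive genes, 2 had one inside the gene: SLC45A3, which encodes prostein, with 11.8, 16.3 and 17.3 fold in V16D/CTL against 17.8, 12.6 and 9.34 fold in V16D/H19, and GRHL2, an epithelial transcription factor, with 7.42, 8.50 and 5.25 fold in V16D/CTL against 3.54, 4.95 and 4.56 fold in V16D/H19. The GRHL2 values did not overlap between groups, and the difference was not called (log2 difference -0.73 ± 0.294, SE; limma adjusted p = 0.631). Of a list of 19 neuroendocrine genes, 2 were the nearest gene start of one: REST, the repressor of neuronal genes, 32.6 kb away (14 fold), and CDH2, which encodes N-cadherin, 62.9 kb away (7.39 fold). Over all genes, 911 of 19974 protein-coding genes (4.56%) had a constant distal region inside. That share is the background for regions inside genes, and none was taken for nearest gene starts. The neuroendocrine count therefore has no background here. At gene starts, KLK2, KLK3, TMPRSS2, KRT8 and KRT18, markers of luminal prostate cells, had an H3K4me3 peak in 6 of 6 lists, and the basal markers KRT5, KRT14 and TP63 in 0.

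H3K27me3, which the rule did not use, overlapped a minority of constant distal regions. Peaks of the same replicate overlapped 120, 150 and 144 regions in V16D/CTL against 107, 121 and 105 in V16D/H19, or 7.93% ± 0.912 and 6.38% ± 0.501 (SD, n = 3), with overlap between the groups. Most of these overlaps rested on weak H3K27me3 peaks, since with only peaks of a −log10 q of at least 5 the mean shares were 0.957% and 0.211%. The shares at gene-start regions were 8.96% ± 0.660 and 7.405% ± 0.242, without overlap. The number of H3K27me3 peaks in the lists themselves ranged from 55060 to 72289 in V16D/CTL and from 56239 to 62879 in V16D/H19, and its part in these shares was not tested. At constant distal regions with a listed start the shares were 13.2% ± 1.21 and 10.4% ± 1.24, also without overlap, and at those without one 6.19% ± 0.765 and 5.05% ± 0.485. Regions with a listed start were the wider, and the part of width was not tested.

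In all, 203 constant distal regions (11.7%) overlapped an H3K27me3 peak in at least 1 list and 66 (3.79%) in all 6, where the shares over all constant regions were 11.8% and 4.51%. Among regions with a listed start, 28 (6.88%) were overlapped in all 6 lists, and among those without, 35 (2.78%). Any shared base counted as an overlap, and median widths were 1868 bases with a listed start and 943 without. The part of width in these shares was not tested. The highest of the 66 in H3K4me3 lay in RORA, a nuclear receptor gene (36.7 fold), IQSEC1 (34.8 fold), LMO2, a transcriptional cofactor of blood development (30.1 fold), SLC30A3, a vesicular zinc transporter (29.6 fold), and GRID2IP (28.4 fold). The region in SLC30A3 had 34.7, 19.8 and 34.9 fold of H3K4me3 in V16D/CTL against 30.5, 44.6 and 20.7 in V16D/H19, and H3K27me3 peaks covered 73.1, 100 and 100% of it in V16D/CTL against 79.0, 61.8 and 67.9% in V16D/H19. The bulk lists do not show whether both marks lay on the same chromosome copies. Stretches prone to mapping artefacts were not filtered out and may be among the 66.

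H3K27me3 calls that followed the groups were rare. In 6 regions a peak was present in all 3 V16D/CTL lists and in no V16D/H19 list (0.345%, where 0.317% of all constant regions had that pattern), and in 0 the reverse held (0.0381% of all constant regions). The 6 lay in PHACTR2 (27.6 fold of H3K4me3), C10orf67 (22.6), FRMD4B (17.3), OXA1L-DT (14.9), LINC00636 (9.47) and GABRB1 (4.66).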

How the data were processed

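H3K4me3 and H3K27me3 libraries (75 bp single-end reads) and an input library were made for each of 3 replicates of V16D/CTL and V16D/H19, grouped by the sample titles. Per the submitters' processing notes and the study's methods, the authors aligned reads to hg38, ran MACS2 separately on every library, with that replicate's input as control (narrow for H3K4me3, broad for H3K27me3), compared groups with DiffBind and annotated sites with ChIPseeker. The aligner and versions are not given in the sources used here. The deposited lists give each peak's score, its fold over input (a ratio), its −log10 p-value and −log10 q-value, and for H3K4me3 the summit's offset from the peak start. Of these, positions, the authors' fold, the −log10 q-value and the summit were used, and the score was not. The deposited tables of differential sites hold the authors' own comparison and were not used. Read depth is not in the lists, so no counting interval was computed. The lists of H3K4me3 held 20048 to 21934 peaks.

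The constant distal regions and all gene lists were chosen with earlier results of these data known. Peaks were merged with an overlap of 1 base in Python 3.11.15. Gene spans came from RefSeq on GRCh38.p14 (59098 genes). Strands came from RefSeq promoter and miRNA tables and, by name, from GENCODE, and 11393 genes (19.3%) had none and counted with both ends. No genome of this build was used, so bases were read only from the RefSeq promoter table. Differences were tested with limma 3.58.1 (R 4.3.3) on log2 fold with no pseudocount and no filter on low values, two-sided, over regions with a peak in all 6 lists. The study tested read counts, which these lists do not hold. P-values measure the spread between the 3 replicates of a group. The fit, merging and distance code were tested on simulated data.

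Regions were named by level (10 highest), difference (3 each way, as none was called), distance (5 farthest), H3K27me3 in all 6 lists (5 highest), 2 gene lists, the limits of the rule (3 each side) and the fullest 100 kb windows. Genes with an internal start, the printed sequences and the 6 regions with H3K27me3 in V16D/CTL only were chosen after their values were seen. Alternatives covered the distance, width, peak strength, gene set, scaling, replicate block and each library left out.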

Additional observations from a re-analysis of the deposited data

How the results depend on the processing

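The number of constant distal regions rests on the annotation and the thresholds. It was 1741 by the rule, 1048 beyond 20 kb, 3458 when only protein-coding gene starts counted and 1080 from peaks with a −log10 q of at least 10. It stayed within 1.5 times at 2444 beyond 5 kb, 2102 without genes of unknown strand, 1776 with no width limit, 1702 when gaps of up to 500 bases were merged, and 1781 to 1881 when a library was left out. Chosen after seeing the data, leaving out pseudogenes gave 2126 and counting listed transcript starts as gene starts gave 1274, and 386 regions held a listed start inside and 416 within 2 kb, against 407 within 1 kb. The difference from gene-start regions moved from -1.72 to -0.34 (log2) for constant distal regions of gene-start width, and stayed between -1.74 and -1.71 when a library was left out. All 15 other fits, each library left out included, also called 0 constant distal regions, with 16 to 146 higher and 24 to 102 lower at an unadjusted p under 0.05. More were higher than lower without centring (81 and 68), with quantile normalization (79 and 74) and by covered length (146 and 102), against 67 and 90 as reported. The fit with a replicate block called 0, with 69 higher and 96 lower. After centring, libraries of the same number did not deviate together across constant regions (r from -0.000976 to 0.0257). This check does not show whether replicates of the same number were handled together. By covered length, the differences at the RNF220 and chromosome 12 regions turned to -0.0427 and 0.00561. The 6 named differences kept their sign in the other 83 of 85 refits, with adjusted p from 0.156 to 0.998. The gap in H3K27me3 share between groups (V16D/H19 minus V16D/CTL) was -1.55 percentage points, -0.747 with peaks of a −log10 q of at least 5 (V16D/CTL share 0.957%, V16D/H19 share 0.211%), and -2.07 to -1.21 when a library was left out. The gap in median fold was 0.319, -0.129 after scaling by library medians and -0.216 to 0.914 when a library was left out, and without V16D/H19 replicate 2 it was -0.216. Read depth per library was not used, so its effect on the lists is unknown.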
